A study of Rattus norvegicus with 46 samples.

Results

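In experiment B of a chlorpyrifos dose study in rat brain, 3 rats given 30 mg/kg were compared with 3 rats given 0.5 mg/kg. The 6 arrays were taken by their titles (animals 2, 3 and 4 at each dose) and form part of 46 arrays in the series, of which 39 hold values in a common row order. All animals were male F344 rats of 11 to 12 weeks that received a single dose and were killed 96 hours later, and RNA came from a piece of frontal lobe of about 30 mg. No genotype or transgene is involved. Both doses are chlorpyrifos, so the comparison asks what differs between a high and a low dose and holds no untreated animal. The 4 vehicle arrays and the single 5 mg/kg array of the same experiment are given as a description only, because the vehicle arrays had higher 3'/5' ratios of beta-actin than any dosed array of the experiment, a sign of RNA quality. A second line in the labels of the vehicle arrays names 1 mg/kg, against their titles, and they were taken as vehicle. Each array is a separately numbered animal, and nothing else in the labels says how the animals or their RNA were handled together. The low-dose animal 1 was left out because its column did not follow the row order of the others (median correlation with them -0.000376).

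Chlorpyrifos is an organophosphate insecticide. Its oxygen analogue, formed in the liver and in other tissues, phosphorylates the active-site serine of acetylcholinesterase, so that acetylcholine persists at its synapses and drives muscarinic and nicotinic receptors. The same chemistry can reach other serine hydrolases, among them butyrylcholinesterase, carboxylesterases and monoacylglycerol lipase, which breaks down an endocannabinoid. In the cortex and striatum acetylcholine shapes neuronal excitability, partly through potassium channels, and the expression of activity-regulated genes. A piece of bulk tissue does not tell fewer cells of a type from less RNA per cell, and a piece cut slightly differently can hold more or less of a neighbouring region.

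The 6 arrays were alike in the measures of quality. At 30 mg/kg the 3'/5' ratios of beta-actin were 1.56, 1.56 and 1.32, and at 0.5 mg/kg they were 1.61, 1.37 and 1.34 (exact permutation test, two-sided, p = 1, where the smallest p that 3 against 3 allows is 0.1). The vehicle arrays had ratios of 2.15, 1.66, 2.1 and 1.73. Correlations between arrays ran from 0.964 to 0.972 within the high dose, from 0.965 to 0.97 within the low dose and from 0.959 to 0.971 between the doses. Arrays of different doses were thus about as alike as arrays of the same dose.

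No transcript passed the test. Of 11106 probe sets tested in limma, 0 (0%) had a Benjamini-Hochberg adjusted p under 0.05. At an unadjusted p under 0.05 there were 791 (7.12%), of which 374 (3.37%) were higher at 30 mg/kg and 417 (3.75%) lower. The 3 arrays of one dose did not overlap with the 3 of the other for 1457 probe sets (13.1%), with 728 (6.56%) higher and 729 (6.56%) lower. With 1 probe set per gene, the brightest, there were 7970 genes, of which 4110 (51.6%) had a higher and 3860 (48.4%) a lower mean at 30 mg/kg. Of these genes 273 (3.43%) were higher and 257 (3.22%) lower at an unadjusted p under 0.05, and 529 (6.64%) were higher and 482 (6.05%) lower with no overlap between the arrays. These percentages are the background for every count of genes below. The median standard error of a change was 0.15 log2 units on 4 residual degrees of freedom. The values below therefore describe these 6 animals, and none of the differences named was shown by the adjusted test.

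**Figure D1:**
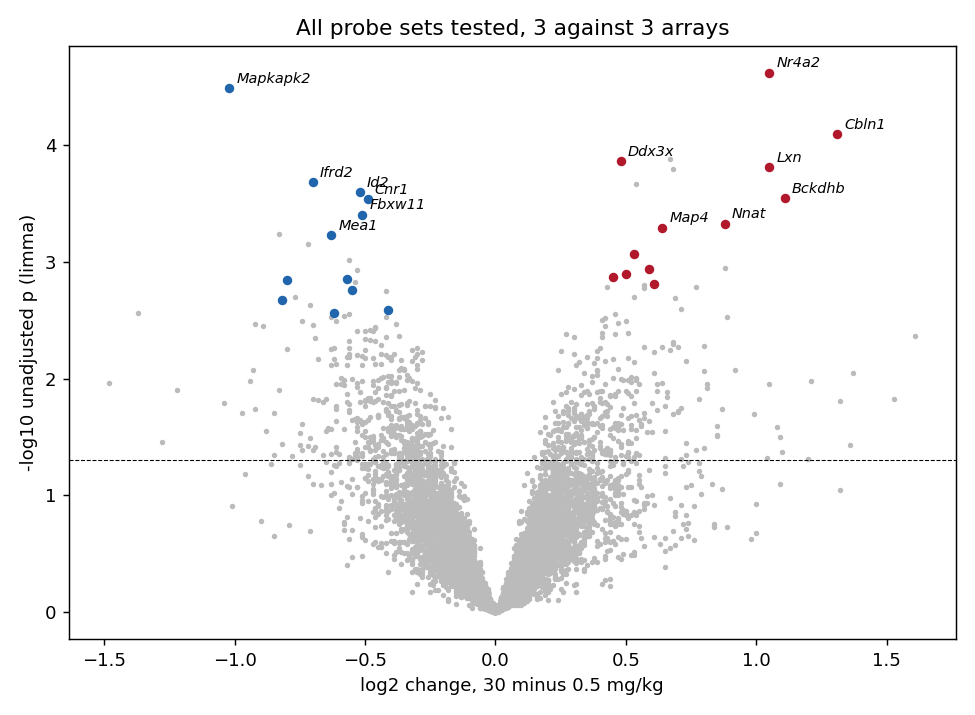
Each point is 1 of the 11106 probe sets; the x axis is the log2 change from 0.5 to 30 mg/kg and the y axis the -log10 of the unadjusted limma p, with a dashed line at 0.05. Coloured points are the 24 leading genes (12 in each direction, by smallest p); Nr4a2 and Mapkapk2 stand highest, both with an adjusted p of 0.181.

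The 12 genes with the smallest p among those higher at 30 mg/kg began with Nr4a2, Cbln1, Ddx3x and Lxn. All 12 had high-dose arrays above every low-dose array, which their choice by smallest p in these same arrays largely fixes. Nr4a2 encodes an orphan nuclear receptor that is induced by activity and also marks deep-layer and claustrum neurons. Its log2 intensity was 8.54, 8.70 and 8.71 in animals 2, 3 and 4 at 30 mg/kg and 7.47, 7.72 and 7.63 at 0.5 mg/kg. All high-dose arrays lay above all low-dose arrays, with a change of 1.05 ± 0.14 (SE; 2.07-fold, adjusted p = 0.181). Across the alternative processings this change stayed between 0.98 and 1.10, and its adjusted p between 0.134 and 0.712.

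Cbln1, a secreted organiser of synapses, had the largest change of the 12 leading genes that were higher. It measured 7.59, 7.68 and 7.73 at 30 mg/kg against 6.24, 6.28 and 6.55 at 0.5 mg/kg, a change of 1.31 ± 0.20 (2.48-fold, adjusted p = 0.253). Lxn encodes latexin, a carboxypeptidase inhibitor known from neurons of the claustrum and lateral cortex. Its arrays read 9.78, 9.31 and 9.99 at the high dose and 8.60, 8.54 and 8.80 at the low dose, with a change of 1.05 ± 0.17 (adjusted p = 0.253). Here animal 3 of the high dose was the lowest of its group, yet still above every low-dose animal. Nnat, neuronatin, an imprinted membrane protein of the endoplasmic reticulum, read 12.20, 11.61 and 12.20 against 11.29, 11.21 and 10.88 (change 0.88 ± 0.17, adjusted p = 0.373), with animal 3 again the lowest of the high dose.

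Bckdhb, a subunit of the branched-chain keto acid dehydrogenase, read 8.43, 8.50 and 8.49 at 30 mg/kg and 7.53, 6.91 and 7.64 at 0.5 mg/kg (change 1.11 ± 0.20, adjusted p = 0.269). The high-dose arrays were tight and the spread came from the low dose (SD 0.39 against 0.04, n = 3 each). Ddx3x, an RNA helicase of translation, was even in both groups: 11.52, 11.58 and 11.52 against 11.10, 11.01 and 11.08, a change of only 0.48 ± 0.08 (adjusted p = 0.253). Map4, a microtubule-associated protein, differed by 0.64 ± 0.12, and Slc24a3, a potassium-dependent sodium-calcium exchanger, by 0.53 ± 0.11. Mrps11, of the mitochondrial ribosome, differed by 0.50 ± 0.11, Gmpr2, a GMP reductase, by 0.61 ± 0.14, Plpp3, a lipid phosphate phosphatase, by 0.45 ± 0.10, and Mpnd by 0.59 ± 0.13. Adjusted p-values of these 12 ran from 0.181 to 0.558. A second probe set of Map4 gave 0.07 ± 0.14, and one of Slc24a3 gave 0.03 ± 0.14. For Plpp3 the 2 other probe sets gave -0.17 ± 0.12 and 0.25 ± 0.27.

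The 12 genes with the smallest p among those lower at 30 mg/kg began with Mapkapk2, Ifrd2, Id2 and Cnr1. Their choice likewise favours a gap between the doses. Mapkapk2, a kinase activated by p38, read 8.72, 9.07 and 8.74 at 30 mg/kg and 10.04, 9.70 and 9.87 at 0.5 mg/kg. Every high-dose array lay below every low-dose array, and the change was -1.02 ± 0.14 (2.03-fold lower, adjusted p = 0.181). Cnr1, the cannabinoid receptor CB1 on presynaptic terminals, read 10.78, 10.59 and 10.72 against 11.16, 11.17 and 11.23 (change -0.49 ± 0.09, adjusted p = 0.269). A second, dimmer probe set of Cnr1 gave -0.53 ± 0.12 with no overlap between doses. Kcna6, a voltage-gated potassium channel subunit, read 7.41, 7.25 and 6.81 against 7.89, 8.12 and 7.90 (change -0.82 ± 0.19, adjusted p = 0.607).

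Id2, an inhibitor of helix-loop-helix transcription factors, read 10.46, 10.52 and 10.32 at the high dose and 10.91, 10.95 and 11.01 at the low dose, a change of -0.52 ± 0.09 (adjusted p = 0.269). Its other probe set went the opposite way, by 0.21 ± 0.15, so the 2 probe sets of this gene do not give 1 direction. Ifrd2, an interferon-related regulator of translation, read 8.70, 8.97 and 8.91 against 9.50, 9.49 and 9.69 (change -0.70 ± 0.12, adjusted p = 0.267). Slit3, an axon guidance ligand, differed by -0.62 ± 0.15, and Fbxw11, the substrate-binding subunit of a ubiquitin ligase, by -0.51 ± 0.10. Ciapin1, a factor of cytosolic iron-sulfur assembly, differed by -0.41 ± 0.10, Tmem208 by -0.55 ± 0.13, Mea1 by -0.63 ± 0.12 and LOC102555617 by -0.80 ± 0.18. Pcdha13 differed by -0.57 ± 0.13, but protocadherin alpha genes share their constant exons and the value may come from several of them. In this direction adjusted p-values ran from 0.181 to 0.614.

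**Figure D2:**
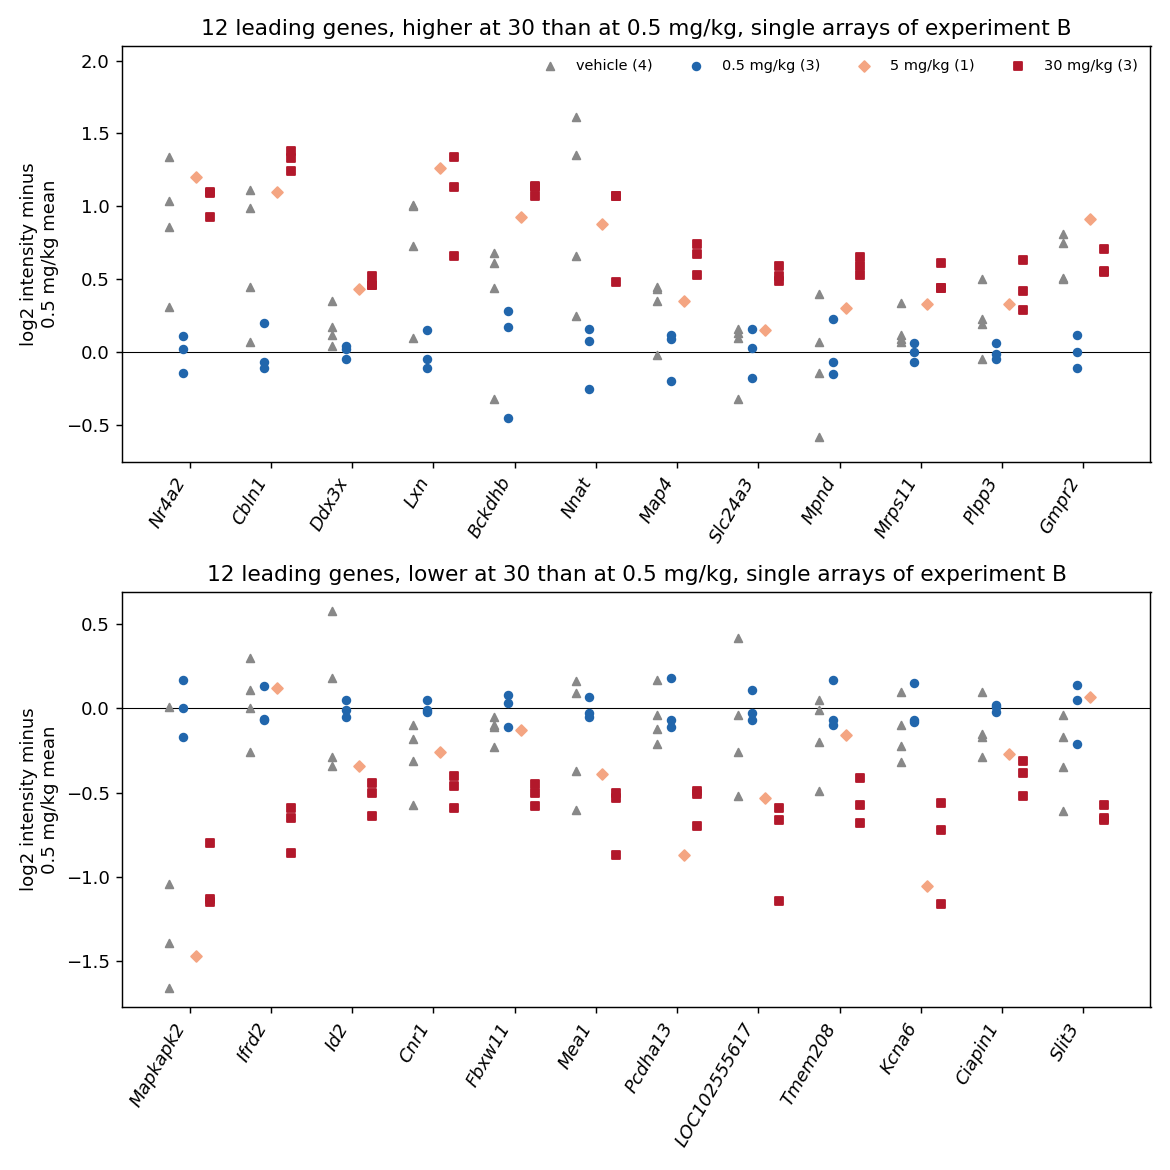
Log2 intensity of the 24 leading genes in single arrays of experiment B, minus the mean of the 3 low-dose arrays (y axis); triangles are vehicle, circles 0.5, the diamond 5 and squares 30 mg/kg. The genes were chosen for the gap between circles and squares; all 4 triangles of Nr4a2 lie above its circles, and 3 of 4 triangles of Mapkapk2 lie well below its circles.

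The vehicle arrays, described without a test because of their higher beta-actin ratios, lay nearer the low dose for most leading genes but not for the first gene of either direction. For Nr4a2 the 4 vehicle arrays read 8.95, 8.65, 7.92 and 8.47, all above the low-dose arrays and around the high-dose ones. For Mapkapk2 they read 8.48, 8.21, 8.83 and 9.88, so 3 of 4 lay with the high dose and 1 with the low dose. Ifrd2 was different, with 9.30, 9.86, 9.67 and 9.56 in vehicle, which is near the low dose. Over the leading genes as a set the vehicle mean was nearer the 30 mg/kg mean for 4 of 12 higher and 2 of 12 lower ones. Over all genes tested it was nearer the 30 mg/kg mean for 42.1% of those higher and 49.7% of those lower. Some leading genes were close to a tie. The vehicle means of Cbln1 (7.01), Map4 (9.33) and Plpp3 (11.25), all higher, and of Slit3 (7.82), lower, lay about midway between the doses. The single 5 mg/kg array, a dim one with a trimmed mean intensity of 205 where the others had 500, was nearer the 30 mg/kg mean for 11 of 12 higher and 8 of 12 lower leading genes, against 57% and 54.8% over all genes. Nr4a2 read 8.81 in it, Lxn 9.91 and Mapkapk2 8.40. The part of its low brightness in these values was not tested.

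Genes of the cholinergic synapse, the known site of action, showed no shared direction. Of 15 measured members 7 were higher and 8 lower, with a median change of -0.03 beside 0.01 over all 7970 genes, and 0 had an unadjusted p under 0.05. Bche, butyrylcholinesterase, read 7.30, 7.16 and 6.63 at 30 mg/kg and 7.42, 7.25 and 7.30 at 0.5 mg/kg (change -0.29 ± 0.22). Chrm1, the main muscarinic receptor of the cortex, read 7.29, 7.06 and 7.51 against 7.41, 7.48 and 7.06 (change -0.03 ± 0.20), with full overlap. Acetylcholinesterase itself was not analysed here.

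The other serine hydrolases and detoxifying enzymes were also mixed. Among 12 hydrolases and paraoxonases 7 were higher, with a median of 0.04, and 1 had an unadjusted p under 0.05. That was Lpl, lipoprotein lipase, at 8.16, 8.33 and 8.17 against 7.78, 7.89 and 7.45 (change 0.52 ± 0.16, adjusted p = 0.627). Mgll, the monoacylglycerol lipase that organophosphates can inhibit, differed by -0.10 ± 0.14 in its brightest probe set. Its 3 dimmer probe sets gave -0.31 ± 0.19, -0.50 ± 0.14 and -0.22 ± 0.25, all in the same direction, and the arrays of the second of these did not overlap. Apeh, an acylpeptide hydrolase sensitive to organophosphates, differed by -0.28 ± 0.14. In xenobiotic metabolism 10 of 19 were higher (median 0.11), with Gstm1, a glutathione transferase, at 0.29 ± 0.12. Cyp2d4 and Cyp1b1, both cytochromes P450, differed by 0.14 ± 0.14 and -0.14 ± 0.20. Another probe set of Cyp2d4 gave -0.08 ± 0.18.

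Activity-regulated genes were split as well, with 9 higher and 15 lower of 24 (median -0.03), while 3 were higher and 1 lower at an unadjusted p under 0.05. Beside Nr4a2 these were Sik1, a salt-inducible kinase, at 7.98, 8.12 and 7.82 against 7.61, 7.21 and 6.99 (change 0.70 ± 0.20), and Dusp1, a phosphatase of MAP kinases, at 10.49, 10.44 and 10.43 against 10.23, 10.13 and 10.08 (change 0.31 ± 0.09). Dusp6, a phosphatase of ERK, lay lower by -0.29 ± 0.13 in its brightest probe set. Its 2 others gave -0.19 ± 0.25 and 0.00 ± 0.21. Fos, the classical marker of recent activity, varied between animals of the same dose. It read 8.74, 7.30 and 8.63 at the high dose against 8.08, 7.19 and 7.40 (change 0.67 ± 0.37), while Jun differed by -0.03 ± 0.13. The 2 other probe sets of Jun gave 0.23 ± 0.17 and -0.18 ± 0.14, the latter without overlap between the doses.

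Ion channels leaned to lower values at 30 mg/kg. Of 33 potassium channel genes 24 were lower, with a median of -0.13; 5 were lower and 2 higher at an unadjusted p under 0.05, beside 3.22% and 3.43% of all genes. Their mean log2 intensity was 8.81, 8.73 and 8.84 at the high dose and 8.91, 9.02 and 8.86 at the low dose. The means did not overlap between the doses, which held for 1 of the 38 gene lists and for 13.1% of probe sets. Kcnip4, an accessory subunit of A-type channels, differed by -0.56 ± 0.16, Kcnk3, a leak channel that muscarinic receptors inhibit, by -0.65 ± 0.22 and Kcna5 by -0.56 ± 0.20 (-0.37 without animal 4 of the high dose). Kcna1 and Kcna2, the most studied members of the Kcna family, differed by only -0.08 ± 0.17 and -0.07 ± 0.18. The vehicle arrays had means of 8.91, 8.82, 8.72 and 8.95, which span both doses. The list's median was -0.06 without animal 3 of the low dose. Sodium and calcium channels had 18 of 21 lower (median -0.05), with Cacng3, an auxiliary subunit of AMPA receptors, at 10.12, 10.05 and 10.43 against 10.79, 10.60 and 10.46 (change -0.41 ± 0.13).

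The release machinery of the synapse leaned the same way, with 19 of 28 lower (median -0.14) and 4 lower, none higher, at an unadjusted p under 0.05. Nsf, the ATPase that recycles SNARE complexes, read 12.19, 12.21 and 12.23 at 30 mg/kg and 12.55, 12.31 and 12.72 at 0.5 mg/kg (change -0.32 ± 0.10). Its 2 other probe sets gave -0.30 ± 0.09 and -0.17 ± 0.08, both without overlap between the doses. Unc13a, a priming factor, read 7.26, 6.07 and 6.85 at 30 mg/kg and 7.23, 7.5 and 7.6 at 0.5 mg/kg (change -0.72 ± 0.30), and the change was -0.39 without animal 3 of the high dose, the lowest of the 6. Syt11, a synaptotagmin, differed by -0.69 ± 0.29 and Sv2b, a vesicle glycoprotein, by -0.33 ± 0.14 (-0.20 without animal 4 of the high dose). The list's median was -0.04 without animal 2 of the low dose. Syn1, a synapsin, and Snap25, a SNARE protein, differed by 0.04 ± 0.10 and -0.03 ± 0.06, and general neuronal markers had 10 of 16 higher (median 0.04). Another, dimmer probe set of Syn1 gave -0.25 ± 0.16.

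Glutamate receptors and transporters were balanced, with 11 of 23 higher (median -0.01). Slc17a6, the vesicular glutamate transporter typical of thalamic neurons, stood out at 8.0, 7.30 and 9.03 against 6.77, 6.67 and 7.25 (change 1.21 ± 0.38, adjusted p = 0.627), and the vehicle arrays read 8.09, 8.50, 8.58 and 7.21. Without animal 4 of the high dose the change was 0.75. Grm3, a metabotropic receptor, differed by -0.54 ± 0.24, and by -0.33 without animal 3 of the high dose. GABA genes had 9 of 17 higher (median 0.04), with none at an unadjusted p under 0.05. In the monoamine system 17 of 20 were lower (median -0.15), led by Adra1b, an adrenergic receptor, at -0.40 ± 0.15. Its list means were 8.38, 8.25 and 8.22 at the high dose and 8.21, 8.61 and 8.47 at the low dose. The low dose thus held both the lowest and the highest of these means. Of the hypothalamic neuropeptides 5 were measured, with 3 higher and a median of 0.17, and Pmch, the precursor of melanin-concentrating hormone, differed by -0.03 ± 0.22. Gal, galanin, read 8.23, 7.78 and 7.91 against 8.11, 8.99 and 8.41 (change -0.53 ± 0.22), which was -0.28 without animal 3 of the low dose.

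Stress pathways gave small shifts in both directions. Of 23 oxidative stress genes 15 were higher (median 0.07), and 3 were higher and 1 lower at an unadjusted p under 0.05. The first were the glutathione peroxidases Gpx3 (0.39 ± 0.11) and Gpx1 (0.54 ± 0.21) and the extracellular superoxide dismutase Sod3 (0.38 ± 0.13); the last was Prdx5, a peroxiredoxin (-0.23 ± 0.10). Without animal 3 of the high dose Gpx1 differed by 0.34. Hmox1 and Nqo1, classical targets of the factor Nrf2, differed by 0.00 ± 0.15 and 0.09 ± 0.14. In the heat shock and unfolded protein list 19 of 31 were lower (median -0.07), with Dnaja1, Hsp90ab1 and Hyou1, all chaperones, at -0.29 ± 0.11, -0.17 ± 0.07 and -0.56 ± 0.24. Another probe set of Dnaja1 gave -0.27 ± 0.11, and another of Hsp90ab1 gave -0.06 ± 0.08. Hspa1a and Hspa2, the first members of the list, differed by 0.04 ± 0.14 and -0.30 ± 0.24. Dnaja1 differed by -0.18 without animal 3 of the high dose, and Hyou1 by -0.31 without animal 2 of the high dose. Inflammation genes had 8 of 17 higher (median -0.01) and none at an unadjusted p under 0.05. Apoptosis and cell cycle genes had 10 of 24 higher and 14 lower (median -0.02). At an unadjusted p under 0.05 were Casp1, the inflammasome caspase, at 0.65 ± 0.25 and the cell cycle inhibitor Cdkn1b at 0.37 ± 0.13. Bcl2 and Bcl2l1, the first members of the list, differed by 0.30 ± 0.24 and -0.03 ± 0.18. Another probe set of Bcl2l1 gave -0.26 ± 0.30.

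Cytosolic ribosomal proteins were higher for 26 of 32 members (median 0.08), with 5 at an unadjusted p under 0.05, among them Rpl27 (0.30 ± 0.08), Rpl12 (0.24 ± 0.09), Rpl11 (0.22 ± 0.09) and Rpl19 (0.17 ± 0.07). Rpl3 and Rpl4 differed by 0.01 ± 0.09 and -0.04 ± 0.09. Ribosomal protein genes have near-identical processed copies, so a probe set may read more than 1 copy. The list's median was 0.02 without animal 3 of the high dose and 0.04 without animal 2 of the low dose. Genes of the respiratory chain were balanced, with 26 of 44 higher (median 0.01): Ndufv1, a complex I subunit, differed by 0.32 ± 0.09 and Atp5f1b, of the ATP synthase, by -0.17 ± 0.06.

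**Figure D3:**
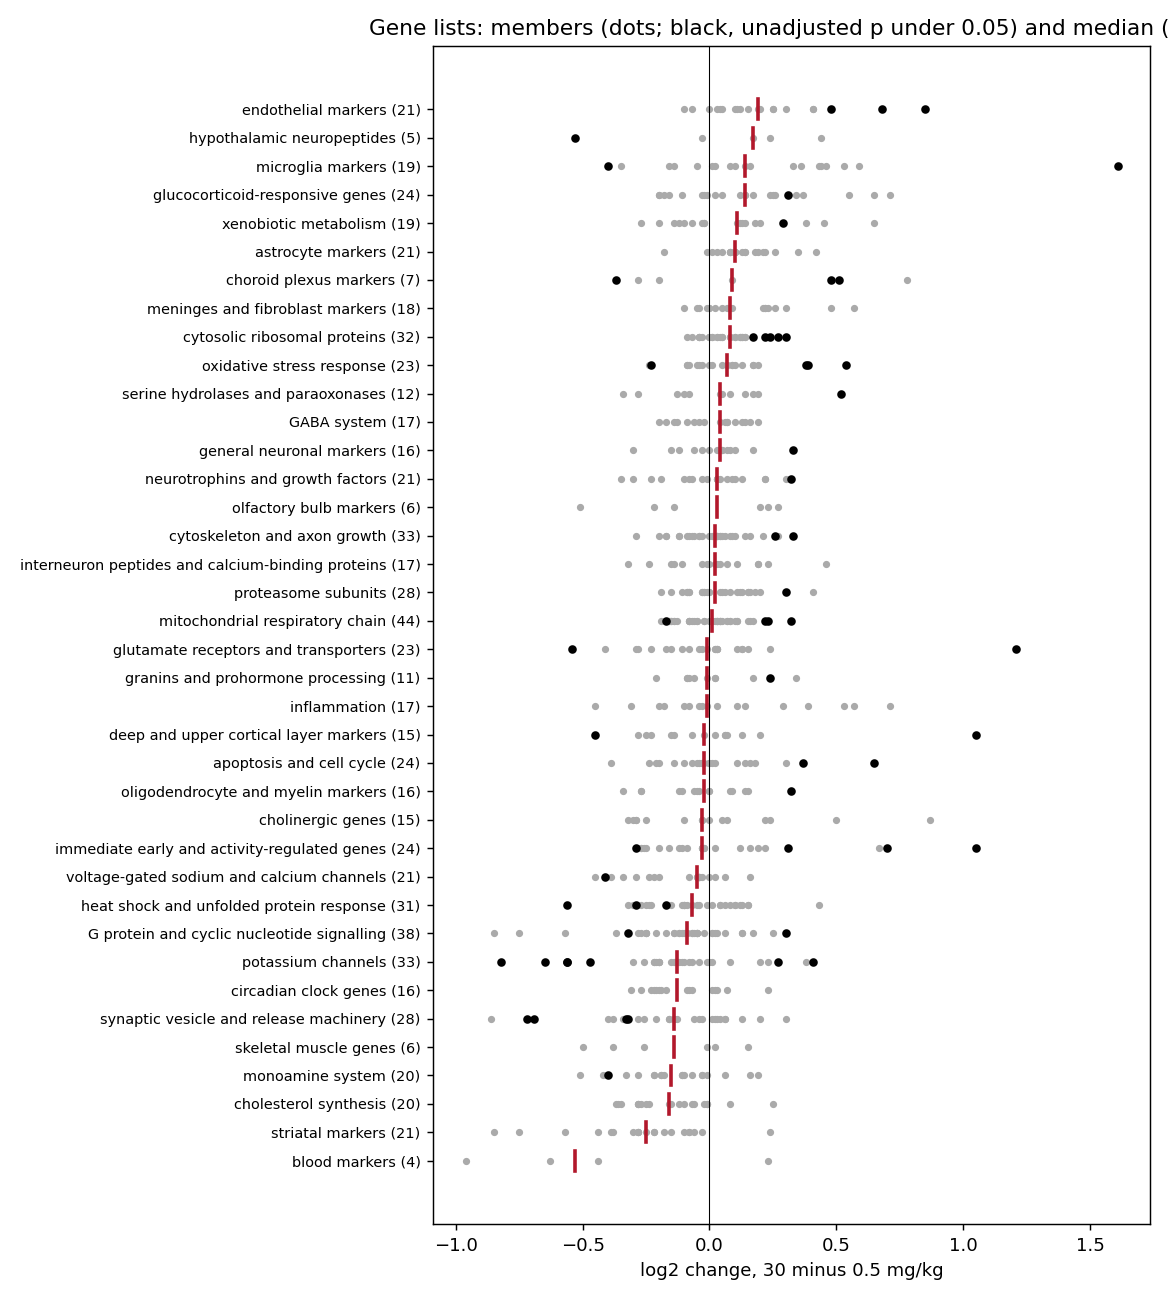
Change from 0.5 to 30 mg/kg (x axis, log2) of each measured member of 38 gene lists (dots; black where the unadjusted p is under 0.05) and the list's median (red bar), with the number of measured members in brackets. Endothelial markers lie furthest to the right of the lists with over 5 members (median 0.19) and striatal markers furthest to the left (median -0.25).

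The cytoskeleton list had 20 of 33 higher (median 0.02), with Map2, a dendritic microtubule protein, at 0.33 ± 0.11 in its brightest probe set and -0.19 ± 0.17 in another, and Pfn1, an actin-binding profilin, at 0.26 ± 0.09. Proteasome subunits had 15 of 28 higher (median 0.02), with the ATPase subunit Psmc3 at 0.30 ± 0.11. G protein and cyclic nucleotide genes had 28 of 38 lower (median -0.09): Pde1a, a calmodulin-dependent phosphodiesterase, differed by -0.32 ± 0.13 and Gng3, a neuronal gamma subunit, by 0.30 ± 0.12. The means of this list, 10.10, 10.01 and 10.01 at the high dose and 10.06, 10.31 and 10.13 at the low dose, overlapped. Growth factor genes had 12 of 21 higher (median 0.03), with Bdnf at 0.22 ± 0.20, its receptor Ntrk2 at -0.10 ± 0.09 and Pdgfra, a receptor of oligodendrocyte precursors, at 0.32 ± 0.13. Another probe set of Ntrk2 gave 0.05 ± 0.12. Clock genes had 11 of 16 lower (median -0.13), none at an unadjusted p under 0.05, with Per1 at -0.20 ± 0.24 and Per2 at -0.17 ± 0.12. Granins and prohormone-processing genes had 5 of 11 higher (median -0.01), with Pcsk1n, an inhibitor of a prohormone convertase, at 0.24 ± 0.09.

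Markers of striatum, a neighbour of the frontal cortex, varied more between animals than between doses. Of 21 members 20 were lower at 30 mg/kg (median -0.25), yet none had an unadjusted p under 0.05. Their mean log2 intensity was 9.38, 9.54 and 8.99 in the high-dose arrays and 8.59, 10.56 and 9.58 in the low-dose arrays. The low dose thus held both the lowest and the highest of the 6 values. Drd2, the dopamine receptor of indirect-pathway neurons, read 8.97, 9.16 and 8.48 against 7.51, 10.46 and 9.16. Without animal 3 of the low dose the median of the list was 0.17, and without animal 2 of the low dose it was -0.73. Their part in the other differences was not tested beyond a fit with the striatal mean as a covariate, in which 0 probe sets were called and 760 had an unadjusted p under 0.05.

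Endothelial and astrocyte markers leaned to higher values. Of 21 endothelial markers 19 were higher (median 0.19), among them Eng, endoglin, at 8.22, 8.28 and 7.89 against 7.75, 7.36 and 7.22 (change 0.68 ± 0.19). Vwf, von Willebrand factor, read 7.58, 9.07 and 8.19 against 7.23, 7.64 and 7.41 (change 0.85 ± 0.32), and Icam2 differed by 0.48 ± 0.20. Without animal 3 of the high dose these changes were 0.46 and 0.32. Pecam1 and Flt1, equally endothelial, differed by 0.25 ± 0.31 and -0.07 ± 0.15. The means of the list were 8.77, 9.06 and 8.67 at the high dose and 8.65, 8.77 and 8.37 at the low dose, which overlap. Astrocyte markers had 19 of 21 higher (median 0.10), none with an unadjusted p under 0.05. Gfap read 12.06, 11.90 and 11.50 against 11.68, 11.41 and 11.71 (change 0.22 ± 0.14). The brightest probe set of Aqp4 gave 0.19 ± 0.16 and its 2 others -0.19 ± 0.11 and -0.38 ± 0.13.

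Animal 3 of the high dose stood apart in several lists at once. Its mean over glucocorticoid-responsive genes was 9.89, where the other high-dose arrays had 9.16 and 9.20 and the low-dose arrays 9.28, 9.23 and 9.29, and it was the highest of the 39 arrays. Fkbp5, a chaperone induced by glucocorticoids, read 9.93 in it against 8.69 and 8.37 in its group and 8.55, 9.16 and 8.36 at the low dose. Its endothelial mean of 9.06 was also the highest of the 39 arrays, and its mean over 4 blood markers, 7.69, the lowest. Hbb, beta-globin, read 9.71 in it and 11.87 and 11.50 in the other 2 high-dose arrays. Its microglia mean was 9.16 against 8.68 and 8.57, and its cholesterol synthesis mean 8.53 against 9.10 and 9.02. The 5 mg/kg array showed the same set, with 9.56 for glucocorticoid-responsive genes, 8.95 for endothelial, 7.78 for blood, 9.30 for microglia and 8.67 for cholesterol synthesis.

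Several list medians rested on that animal. Of 50 named genes with an unadjusted p under 0.05, the leading ones aside, 13 had a change over 1.5 times smaller on leaving out 1 array, and for 6 of these it was that animal. Glucocorticoid-responsive genes had 16 of 24 higher with a median of 0.14, which was -0.07 without it. Cholesterol synthesis genes had 18 of 20 lower with a median of -0.16, which was 0.01 without it. Microglia markers had 14 of 19 higher with a median of 0.14, which was -0.04 without it. Blood markers, 3 of 4 lower with a median of -0.53, gave -0.21 without it. For endothelial markers the median was 0.10 without it, and 0.07 without animal 4 of the low dose. RT1-Ba, a class II antigen-presenting gene of microglia, did not rest on it, at 8.03, 7.75 and 7.89 against 7.17, 5.15 and 6.51 (change 1.61 ± 0.43, adjusted p = 0.614); its low-dose values were the more spread, and the change was 1.05 without animal 3 of the low dose. Aif1, another microglia marker, had 1 probe set at -0.40 ± 0.15 and another at 0.54 ± 0.22.

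**Figure D4:**
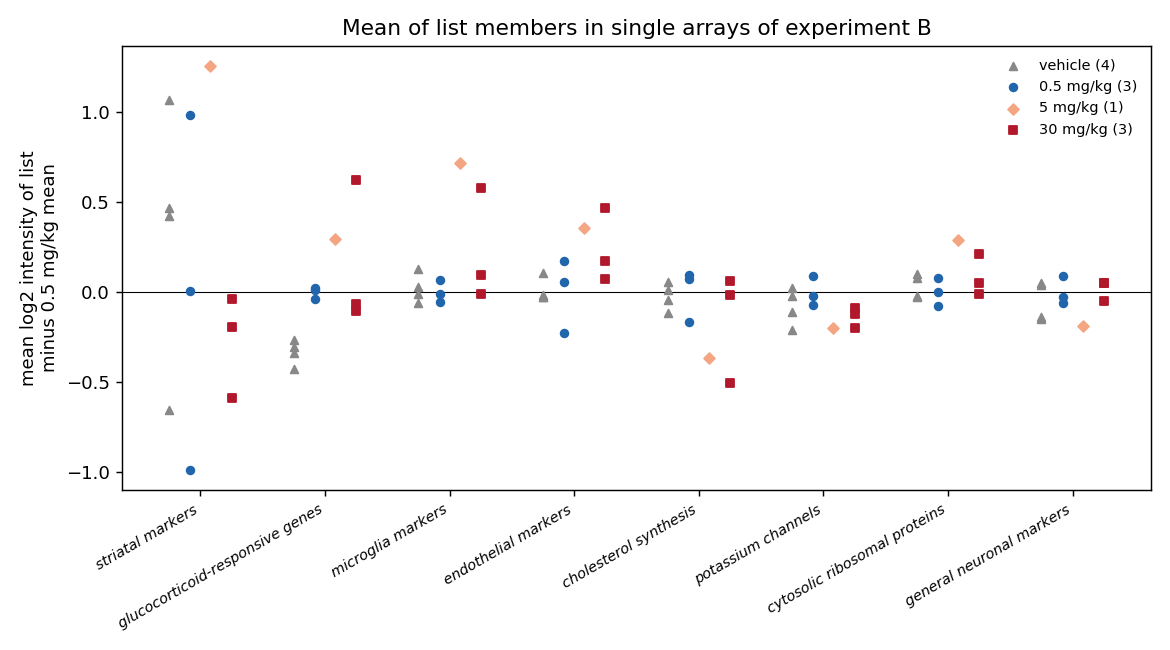
Mean log2 intensity of the members of 8 gene lists in single arrays of experiment B, minus the mean of the 3 low-dose arrays (y axis); triangles are vehicle, circles 0.5, the diamond 5 and squares 30 mg/kg. The striatal mean is most spread, from 8.59 to 10.56 within the low dose, and 1 square, animal 3, stands far from the other 2 for glucocorticoid-responsive genes, microglia and cholesterol synthesis.

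Markers of other tissue were mixed. Choroid plexus markers had Folr1 and Sostdc1 higher (0.51 ± 0.21 and 0.48 ± 0.20) and Aqp1 lower (-0.37 ± 0.11), and Folr1 differed by 0.30 without animal 3 of the low dose. Ttr, transthyretin, read 8.89, 8.24 and 7.25 against 7.30, 7.61 and 7.15. Meningeal and fibroblast markers had 12 of 18 higher (median 0.08), and -0.06 without animal 4 of the low dose. Oligodendrocyte and myelin markers had 7 of 16 higher (median -0.02), with Mbp at -0.05 ± 0.09. Cortical layer markers were balanced (7 of 15 higher, median -0.02): beside Nr4a2, Tbr1, a deep-layer transcription factor, differed by -0.45 ± 0.16, the opposite direction. Interneuron markers had 10 of 17 higher (median 0.02), with the peptides Sst at -0.32 ± 0.18 and Npy at -0.03 ± 0.12. Olfactory bulb markers were split evenly over 6 members (median 0.03), with Th, tyrosine hydroxylase, at -0.22 ± 0.24. Skeletal muscle genes, of which 6 were measured, had a median of -0.14 and none at an unadjusted p under 0.05.

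The 2 other experiments, which share no array with this comparison, gave a test of the same kind of contrast. In experiment A 50 mg/kg was set against 1 mg/kg (3 against 3 arrays), and in experiment C 10 mg/kg against 1 mg/kg (4 against 4 arrays), so doses differ from those here. Titles of animals 2 and 3 at 10 mg/kg of C carry the words 1st repeat, and those of its 1 mg/kg arrays do not. What this means for their values was not tested. Over 11106 probe sets the changes of experiment B had a Pearson correlation of 0.0835 with those of A and of -0.0649 with those of C, as a description across probe sets that are not independent. In limma, the difference between the change in B and that in A was called for 0 (0%) probe sets, and 577 (5.2%) had an unadjusted p under 0.05. For B and C the call was likewise made for 0 (0%), and 670 (6.03%) had an unadjusted p under 0.05. Animal 1 of the 1 mg/kg group of C stood apart from the other arrays of that comparison, with a 3'/5' ratio of 4.72 for beta-actin (1.24 to 1.83 in the others) and 2.42 for Gapdh, and a median correlation of 0.942 (0.956 to 0.967). Without it 0 were called, 706 (6.36%) had an unadjusted p under 0.05 and the correlation of B with C was -0.0547.

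The leading genes did not share their direction there. Of the 12 higher in B, 6 were higher in A and 2 in C (over all genes, 54.4% were higher in A and 49% in C), with median changes of 0.00 and -0.06. Of the 12 lower in B, 7 were lower in A and 4 in C, with medians of -0.02 and 0.03. Without animal 1 of the 1 mg/kg group of C, 4 of the 12 higher and 6 of the 12 lower genes had their direction of B in C, with medians of -0.08 and 0.02. Id2 moved most among them, from 0.09 to 0.78 ± 0.33 in C. Standard errors in A and C are from a fit over all usable arrays, and those of B given above from its 6 arrays alone. The 2 kinds are not comparable. In the fit over all usable arrays, the difference between B and A had a standard error of 0.52 for Nr4a2. For Mapkapk2 and Cbln1 it was 0.59 and 0.98. Nr4a2 differed by -0.78 ± 0.37 in A and -0.17 ± 0.32 in C, opposite to its 1.05 in B. Mapkapk2 differed by -0.03 ± 0.41 in A and 0.01 ± 0.36 in C, and Bckdhb by 0.02 ± 0.28 and -0.01 ± 0.24. In A, Mapkapk2 read 9.61, 8.32 and 8.54 at 1 mg/kg and 9.62, 8.54 and 8.23 at 50 mg/kg. Within each of these doses of A its range was thus wider than its change in B. In C it read from 8.98 to 9.65 at 1 mg/kg and from 9.01 to 10.14 at 10 mg/kg. Cbln1 differed by 1.07 ± 0.69 in A and -0.03 ± 0.60 in C. Kcna6 was lower in A, by -0.47 ± 0.28, and 0.03 ± 0.24 in C. Cnr1 went the other way in both, at 0.20 ± 0.18 and 0.16 ± 0.16. Striatal markers had a median of 0.30 in A and -0.07 in C, and potassium channels -0.08 and -0.07; in C these were -0.33 and -0.03 without that array.

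**Figure D5:**
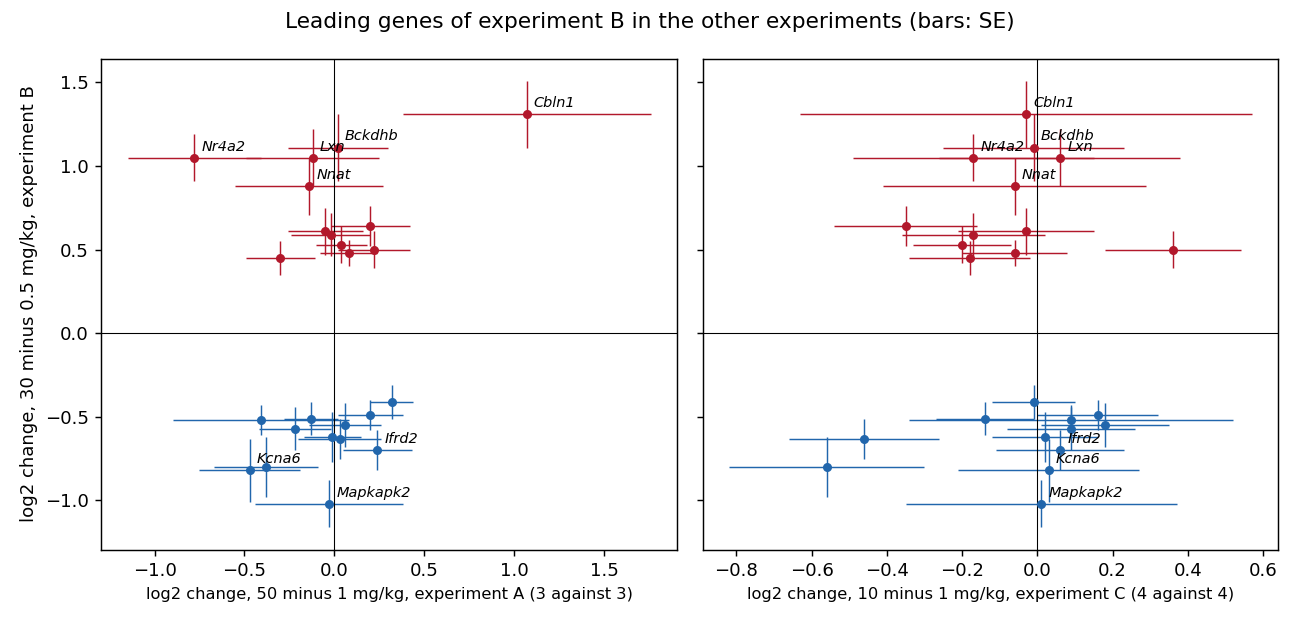
Change of the 24 leading genes in experiment B (y axis, log2, 30 minus 0.5 mg/kg) against their change in experiment A (left, 50 minus 1 mg/kg) and C (right, 10 minus 1 mg/kg), with bars of 1 SE. Red and blue points are genes higher and lower in B; along the x axis both colours lie on either side of 0, with Cbln1 at 1.07 and Nr4a2 at -0.78 in A.

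Some of the smallest p-values belonged to probe sets that were not the brightest of their gene, and these were named after their values were seen. A probe set of Hnrnpu, a nuclear RNA-binding protein, read 10.77, 10.73 and 10.66 against 10.24, 9.96 and 9.93 (change 0.67 ± 0.11, adjusted p = 0.253), while the brightest one gave 0.16 ± 0.10. A probe set of Gabrb2, a GABA receptor subunit, gave -0.83 ± 0.16 and the brightest -0.04 ± 0.12. For Usp2, a deubiquitinase, the values were -0.72 ± 0.14 and -0.07 ± 0.15. Of 1148 genes with several probe sets tested, 548 had probe sets of both signs. Among the 20 probe sets with the smallest p, 3 carry no gene symbol.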

How the data were processed

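The values the authors deposited are linear signal intensity per probe set of an Affymetrix rat array, without detection calls; how they were summarized is not stated in the sources used. Per the labels, 15 ug of RNA was labelled with biotin. Here each array was scaled to a common median, values under the 5th percentile (10.8) were raised to it, and log2 values were quantile normalized over 39 arrays; 7 arrays in another row order were left out. The 57 controls and probe sets whose mean over the 6 arrays fell under the 30th percentile were removed. Raw medians of the 6 arrays were 263 to 276, and the number of arrays limits precision. limma 3.58.1 (R 4.3.3; eBayes with trend) compared 3 with 3 arrays, two-sided, and p-values measure only the spread between these animals. The code was tested on simulated data. Gene symbols (12783 probe sets with 1, 312 with several, 2771 with none) are those of the platform table, updated by identifier (12748 matched). The comparison, gene lists and rules were chosen with earlier results of these data known. Since no gene passed, the rule named the 12 genes per direction with the smallest p. Of each list it named the first 2 measured members and up to 4 with an unadjusted p under 0.05. Not all of these list members are given above. For some lists, such as proteasome subunits and granins, only members with an unadjusted p under 0.05 are given. Means of marker lists are given without the planned permutation test. Figures used matplotlib 3.10.9 under python 3.11.15.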

Additional observations from a re-analysis of the deposited data

Results flagged for a closer look

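Within the 4 vehicle arrays of experiment B, 5 of 64 sets of values had 1 array far from the other 3; chance alone flags about 1 in 20 such sets. Slc24a3 was lowest in animal 4, at 9.57 where the others lay between 9.99 and 10.05. The mean of G protein and cyclic nucleotide signalling genes was lowest in animal 3, at 10.05, and that of neurotrophins and growth factors lowest in animal 2, at 8.74. The mean of endothelial markers was highest in animal 4, at 8.70, and the Gapdh 3'/5' ratio highest in animal 1, at 1.24. None of these arrays enters the comparison of the doses.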

How the results depend on the processing

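The count of 0 probe sets called held under 16 of the 17 alternatives to the processing. The exception was the analysis with no filter on dim probe sets, which called 3 of 15866, 1 higher and 2 lower, all with an adjusted p of 0.0206, and had 1104 at an unadjusted p under 0.05. They were Scn9a (1.31 ± 0.07), Acvr1c (-2.32 ± 0.10) and an unnamed probe set (-2.73 ± 0.15). Their intensities in the dimmer dose were at most 9.9, 10.9 and 15.9, beside the floor of 10.8 set on scaled intensities. Leaving out each animal in turn gave 0 to 0 calls. The labels do not say whether the animal numbers pair the doses. Deviations of same-numbered animals correlated by 0.0304, 0.0628 and 0.109, and those of differently numbered animals by -0.121 to 0.0477. So few values cannot tell whether the numbers pair the doses. With the replicate number as a block 0 were called, with 423 higher and 463 lower at an unadjusted p under 0.05 (886 in all). None of the 24 leading genes passed in the alternatives that could be fitted for them (202 and 201 values); their choice by smallest p largely fixes their sign, which is no sign of stability. Of the differences from experiments A and C 0 were called, also without animal 1 of the 1 mg/kg group of C, an alternative chosen after seeing the data (for C, 706 at an unadjusted p under 0.05). With equal medians only, without quantile normalization, the median over all probe sets stayed at 0, which scaling to equal medians largely fixes. Of 684 list medians under an alternative 20 moved beyond the spread between animals, 15 of them on leaving out an animal.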
